A study of Homo sapiens with 3 samples.

Results

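In human neural stem cells, 424 promoters of protein-coding genes that are poor in CpG dinucleotides had a peak of the chromatin remodeler CHD8 or of the acetyltransferase scaffold TRRAP. A promoter was the 1 kb on each side of the start of a gene's canonical transcript (GENCODE release 44, chromosomes 1 to 22 and X), and it was CpG-poor where the ratio of observed to expected CpG over the 1000 bp centred on the start was below 0.5. Of 19970 coding promoters, 5639 were CpG-poor; the 424 were selected on overlap with a deposited peak by at least 1 bp, and the other 5215 CpG-poor promoters without peaks served as the comparison. Chromatin immunoprecipitation and sequencing was done on wild-type (WT) neural stem cells made from the established embryonic stem cell line H9, kept in medium with EGF and FGF and double crosslinked with disuccinimidyl glutarate and formaldehyde. Separate libraries were made with an antibody against CHD8 (Bethyl), an antibody against TRRAP (Invitrogen) and control IgG (Diagenode), of which the IgG one was not analysed here. There was 1 library per antibody and hence no replicate, so the 95% Wilson intervals given with shares cover counting error over promoters only, and no p-value was computed.

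CHD8 is an ATP-dependent remodeler that slides and spaces nucleosomes and is found mostly at promoters marked by trimethylated H3K4. TRRAP has no catalytic activity of its own and tethers the histone acetyltransferases of the SAGA and TIP60 complexes to transcription factors. Most promoters of widely expressed genes lie in CpG islands, whereas CpG-poor promoters are more often tissue-restricted, are more often methylated, and more often carry a TATA box that fixes the position of the start.

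The upstream sequence of promoters with summits close to the start is printed to show their CpG dinucleotides. Each run below is the 150 bases before the start, in the direction of transcription, from GRCh38, with every CG in capitals. ZNF484 (chr9:92878039-92878188, minus strand) and ZNF205 (chr16:3112436-3112585, plus strand) are zinc finger genes and had CHD8 alone. ZNF579 (chr19:55580849-55580998, minus strand), another zinc finger gene, and IKZF4 (chr12:56020893-56021042, plus strand), an Ikaros-family transcription factor, had both proteins. FABP7 (chr6:122779566-122779715, plus strand), the brain fatty acid binding protein of radial glia, had CHD8 alone.
ZNF484: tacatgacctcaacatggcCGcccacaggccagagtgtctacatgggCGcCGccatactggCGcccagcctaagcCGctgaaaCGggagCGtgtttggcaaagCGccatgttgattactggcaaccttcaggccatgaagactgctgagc
ZNF205: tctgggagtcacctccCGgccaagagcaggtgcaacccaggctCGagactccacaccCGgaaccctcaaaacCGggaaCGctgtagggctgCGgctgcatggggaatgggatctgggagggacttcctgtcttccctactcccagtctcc
ZNF579: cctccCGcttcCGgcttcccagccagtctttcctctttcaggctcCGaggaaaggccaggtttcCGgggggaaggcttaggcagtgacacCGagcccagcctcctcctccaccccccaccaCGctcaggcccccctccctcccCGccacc
IKZF4: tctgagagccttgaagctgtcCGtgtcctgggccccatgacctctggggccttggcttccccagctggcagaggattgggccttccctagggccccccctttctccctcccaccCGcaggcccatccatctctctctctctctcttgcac
FABP7: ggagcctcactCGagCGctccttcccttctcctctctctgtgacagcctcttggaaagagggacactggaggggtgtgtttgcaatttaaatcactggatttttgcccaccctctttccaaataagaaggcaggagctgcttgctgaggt
These runs hold 8 CG in ZNF484, 6 in ZNF205, 7 in ZNF579, 2 in IKZF4 and 2 in FABP7. The CpG ratio of the run itself was 0.621 in ZNF484, 0.409 in ZNF205 and 0.455 in ZNF579. These were higher than the 0.461, 0.308 and 0.320 of their 1000 bp. In IKZF4 and FABP7 the ratio of the run was 0.142 and 0.197, lower than their 0.288 and 0.250. The CHD8 summit lay 105 bp upstream of the start in ZNF484, 2 bp upstream in ZNF205, 83 bp in ZNF579 and 84 bp in IKZF4, all inside the printed stretch. In FABP7 it lay 221 bp upstream, beyond it.

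Another set shows sequence words that were more frequent in the promoters with peaks. The words are TTCCCGC for E2F factors, CCGGAAG for ETS factors and GGGGCGGGG for SP factors, each searched on both strands and shown in capitals with 20 bases on each side. ETS words stood in ZNF579 (chr19:55580965-55581011, minus strand) and in CARD8, an inflammasome sensor gene (chr19:48255934-48255980, minus strand). SP words stood in WFIKKN1, which encodes a secreted protein with protease inhibitor domains (chr16:630849-630897, plus strand), and in TRIM2, a ubiquitin ligase gene (chr4:153204360-153204408, plus strand). E2F words stood in TSC22D4, a leucine zipper protein gene (chr7:100479305-100479351, minus strand), and in ATP2B4, a plasma membrane calcium pump gene (chr1:203626768-203626814, plus strand).
ZNF579: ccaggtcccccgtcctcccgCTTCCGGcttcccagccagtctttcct
CARD8: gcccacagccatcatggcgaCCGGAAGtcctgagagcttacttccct
WFIKKN1: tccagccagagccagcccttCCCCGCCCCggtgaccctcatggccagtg
TRIM2: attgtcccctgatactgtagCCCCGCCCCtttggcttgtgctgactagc
TSC22D4: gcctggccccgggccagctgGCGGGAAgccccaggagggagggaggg
ATP2B4: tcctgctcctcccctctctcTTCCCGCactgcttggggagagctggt
The word began 143 bp upstream of the start in ZNF579, 48 bp in CARD8, 116 bp in WFIKKN1, 63 bp in TRIM2, 117 bp in TSC22D4 and 44 bp in ATP2B4. In the same order, the CHD8 summit lay 83, 52, 104, 64, 140 and 200 bp upstream of the start. Thus the summit was near the word in CARD8, WFIKKN1 and TRIM2 and farthest from it in ATP2B4. The printed words were taken close upstream of starts whose CHD8 summit lay within 250 bp. That selection favours nearness of word and summit, and nothing is read from it.

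The last set shows the TATA word TATAAA on the coding strand, which was rarer in the promoters with peaks. Each run is the 60 bases before the start. The selenium-binding protein gene SELENBP1 (chr1:151372706-151372765, minus strand) had a CHD8 peak. ANXA1 (annexin A1, chr9:73151805-73151864, plus strand) and the chemokine gene CCL3 (chr17:36090144-36090203, minus strand) had no peak of either list.
SELENBP1: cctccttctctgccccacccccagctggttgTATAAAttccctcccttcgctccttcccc
ANXA1: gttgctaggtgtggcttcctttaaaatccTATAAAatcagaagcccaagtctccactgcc
CCL3: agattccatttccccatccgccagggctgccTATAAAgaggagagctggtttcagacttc
The word began 29 bp upstream of the start in SELENBP1, 31 bp in ANXA1 and 29 bp in CCL3.

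Occupancy of CpG-poor promoters was low and rose steadily with the CpG ratio. A CHD8 or TRRAP peak was present at 7.52% of the 5639 CpG-poor promoters (6.86 to 8.24), against 76.6% (75.9 to 77.3) of the 14331 with a ratio of at least 0.5 and 57.1% of all 19970. CHD8 was at 402 CpG-poor promoters, 7.13% of them against 56.1% of all coding promoters. TRRAP was at 156, 2.77% against 35.1%. Both proteins were at 134, 2.38% against 34.1%. As the promoters were selected on these peaks, the counts describe the set. The 402 promoters with CHD8 held 388 distinct peaks, since 28 shared theirs with another, and at 14 of them the summit sequence occurs more than once in the genome. CHD8 peaks rose from 0.787% of promoters with a ratio below 0.1 to 2.07%, 5.64%, 10.8% and 21.4% in the next bins of 0.1, and from 45.5% to 85.8% across the CpG-rich bins. TRRAP peaks rose from 0 of 381 promoters (0 to 0.998%) through 0.976%, 2.09%, 4.03% and 8.57% to 67.2%. The limit of 0.5 is a point on this slope. Just inside it were PDE11A (ratio 0.497, CHD8 fold 7.98), IFT46 (0.498, CHD8 fold 7.54, TRRAP fold 13.9) and ABHD1 (0.499, CHD8 fold 8.43). Just outside it were DET1 (0.500, CHD8 fold 15.1), CNMD (0.501, TRRAP fold 7.69) and ZNF90 (0.501, CHD8 fold 17.3). A fold is the authors' ratio of signal at the summit to the peak caller's background.

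**Figure D1:**
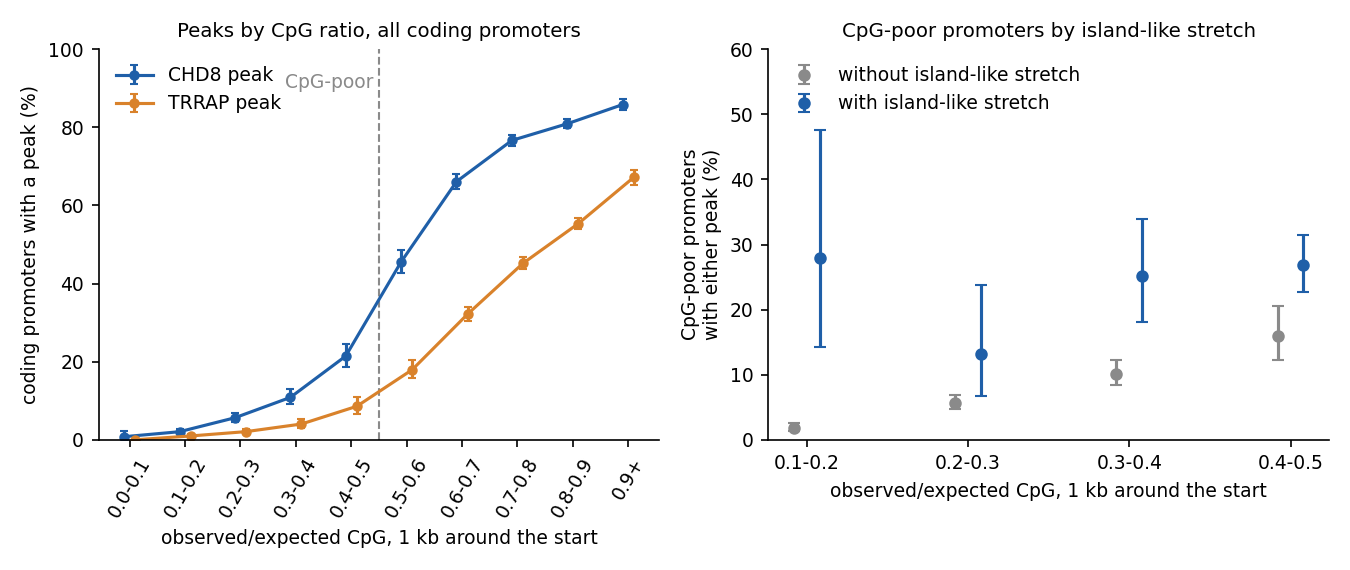
Left, percentage of coding promoters with a CHD8 or a TRRAP peak within 1 kb (vertical axis) in bins of the ratio of observed to expected CpG around the start (horizontal axis), with the limit of CpG-poor promoters dashed. Right, percentage of CpG-poor promoters with either peak, split by a CpG island-like stretch within 1 kb; bars are 95% Wilson intervals, and in the bin from 0.3 to 0.4 the shares are 25.2% with such a stretch and 10.1% without.

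A CpG-poor start can stand beside a CpG-rich sequence, and this was more frequent where a peak was present. A CpG island-like stretch (500 bp with a CpG ratio of at least 0.6 and at least 50% GC) lay within 1 kb of the start in 150 of the 424, 35.4% (30.98 to 40.04), and in 446 of the 5215 without peaks, 8.55% (7.82 to 9.34). Another coding start lay within 1 kb in 50 (11.8%, 9.06 to 15.2) against 176 (3.37%, 2.92 to 3.90). A CpG-rich one did so in 29 (6.84%) against 9 (0.173%), and the start of any other gene in 30.4% against 11.4%. An alternative start of the same gene, more than 1 kb away and with a CpG ratio of at least 0.5, existed for 106 (21.1 to 29.3%) against 462 (8.86%, 8.12 to 9.66). Of those alternative starts, 79 of 106 and 216 of 462 had a peak of their own. The contrast by island-like stretch was also present at like CpG ratios of the start: from 0.3 to 0.4 a peak was at 25.2% (18.2 to 33.9) of promoters with such a stretch and 10.1% (8.36 to 12.3) of those without, and from 0.4 to 0.5 at 26.9% (22.8 to 31.5) and 16.0% (12.3 to 20.5). From 0.2 to 0.3 the shares were 13.1% and 5.66%, with intervals that overlap narrowly.

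Summits far from the start lay mostly in CpG-rich sequence, and summits near it mostly in CpG-poor sequence. The summit taken for each promoter was that of CHD8, or that of TRRAP where CHD8 was absent. It was within 250 bp of the start in 275 of the 424 (64.9%) and more than 500 bp away in 101 (23.8%), with 33 outside the 1 kb window. The CpG ratio in the 250 bp on each side of that summit was at least 0.5 in 62 of the 275 near summits (22.5%, 18.0 to 27.8) and in 66 of the 101 far ones (65.3%, 55.7 to 73.9). The promoters were selected on a low ratio over the 1000 bp centred on the start. That window holds the surroundings of near summits but not all of those of far ones. The selection thus favours this contrast, and nothing is read from it. The ratio around the summit was at least 0.5 in 106 of the 150 promoters with an island-like stretch and in 35 of the 274 without. With such a stretch, 78 of the 150 summits (52.0%, 44.1 to 59.8) were still within 250 bp of the start, against 197 of the 274 (71.9%, 66.3 to 76.9) without. ENO3, the muscle enolase gene, had a ratio of 0.198 at its start, and its CHD8 summit (fold 15.5) lay 1417 bp upstream in sequence with a ratio of 0.938. HCRT, which encodes the neuropeptide orexin, had a ratio of 0.210 at its start and 0.820 at its CHD8 summit (fold 11.1), 1045 bp downstream. RNASEK-C17orf49, a read-through gene, had the highest TRRAP fold of the set, 52.1, at a summit 1105 bp downstream of its start with a ratio of 0.949. C1orf127 followed with 26.3 at 1072 bp downstream, but the ratio around that summit was 0.164, and no island-like stretch lay within 1 kb.

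**Figure D2:**
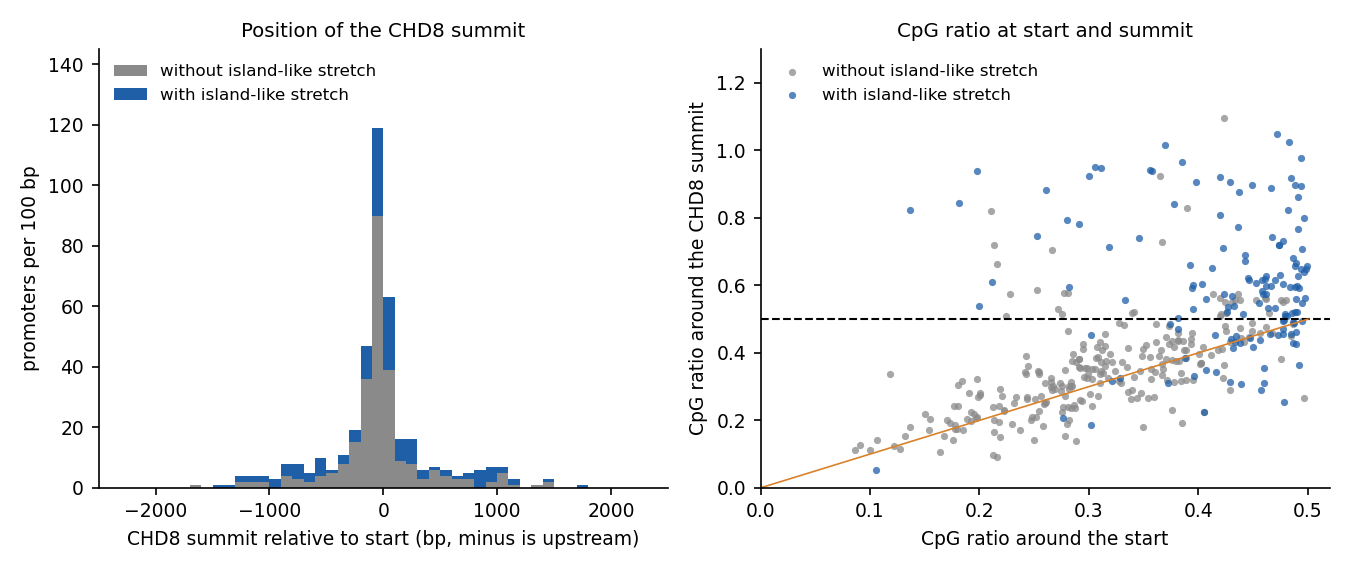
Left, number of promoters (vertical axis) by distance of the CHD8 summit from the start in bins of 100 bp (horizontal axis), for the 402 promoters with CHD8, split by an island-like stretch within 1 kb. Right, CpG ratio around the start (horizontal axis) against that around the CHD8 summit (vertical axis), 1 point per promoter, with equality in orange and 0.5 dashed; points high above the line are mostly promoters with an island-like stretch, such as ENO3 at 0.198 and 0.938.

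In 161 promoters neither the summit so taken nor the surroundings were CpG-rich by the measures above. These had no island-like stretch and no other coding start within 1 kb, and a single-copy summit within 250 bp of the start with a CpG ratio below 0.5 around it. They are 38.0% (33.5 to 42.7) of the 424, and 42 of them had both proteins, 110 CHD8 alone and 9 TRRAP alone. In the 42 the limits applied to the CHD8 summit, and the TRRAP summit was not held to them. In TNRC6B, for example, the TRRAP summit lay 616 bp downstream of the start with a ratio of 0.540 around it. Shorter or AT-richer stretches were not excluded by these measures. An island-like stretch of 200 bp lay within 1 kb in 73 of the 161 (45.3%, 37.8 to 53.1), 500 bp with a ratio of at least 0.6 at any GC share in 16, and a transcript start of another gene, coding or not, in 29. Their CHD8 folds ran from 5.33 to 39.8 with a median of 8.87, beside a median of 9.75 in all 402. The strongest were ZNF484 (39.8), ZNF579 (35.8), CARD8 (29.6), TOMM40L (27.0), a gene of the mitochondrial import pore family, and TNRC6B (24.8), a component of microRNA silencing. Among these 5, the highest ratio over 500 bp within 1 kb was 0.699 in ZNF484, 0.710 in CARD8 and 0.684 in TNRC6B. It was 0.460 in ZNF579 and 0.410 in TOMM40L. The strongest peaks thus include promoters with CpG-richer sequence nearby. ZNF484 had a ratio of 0.461 at its start and 0.477 at its summit. TNRC6B had 0.385 and 0.193 (CHD8 summit), and RUFY3, an adaptor in neuronal transport, had 0.178 and 0.187 with a fold of 17.7.

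Several of the 161 are genes of neural progenitors and neurons. These were picked for their function after the values were seen, and no count rests on them. Genes of other functions in the 161 had like CHD8 folds, such as the interferon-induced IFI6 (12.8), the chemokine gene CX3CL1 (11.1) and the matrix gene SPARC (9.75). No neural theme of the 161 is therefore read from the genes named here. SOX5 (CHD8 fold 11.5) is a transcription factor of cortical neuron development, and CRB2 (11.1) an apical polarity gene of neuroepithelium. CHD2 (11.1) encodes a remodeler of the same family as CHD8. The highest ratio over 500 bp within 1 kb was 0.859 in SOX5 and 1.09 in CHD2, in stretches below 50% GC. DLG4 (10.6) encodes the postsynaptic scaffold PSD-95, GRM3 (10.6) a glutamate receptor and SV2A (12.4) a synaptic vesicle protein. CRB2, GRM3 and SV2A also had a TRRAP peak, whereas SOX5, CHD2 and DLG4 had CHD8 alone. FABP7 (10.2) was 1 of 2 CpG-poor promoters on the list of neural stem and radial glia genes, and the other, of HOPX, had no peak.

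Peaks were also found at the CpG-poorest starts. HOGA1, a mitochondrial aldolase gene, had a ratio of 0.0863 at its start and a CHD8 fold of 6.66. It shares that peak with a neighbouring coding gene without a symbol, whose ratio was 0.0997 and whose start lies within 1 kb. CALCRL, the calcitonin receptor-like receptor gene, had a ratio of 0.0910 and a CHD8 fold of 7.10. C1orf232 had 0.105 with folds of 13.7 for CHD8 and 4.82 for TRRAP, although an island-like stretch and another coding start lay within 1 kb. S100A2, which encodes a calcium-binding protein of epithelia, had 0.106 with folds of 10.6 for CHD8 and 11.5 for TRRAP at summits 761 and 790 bp upstream. The ratio around the CHD8 summit was 0.114 in HOGA1, 0.128 in CALCRL, 0.0515 in C1orf232 and 0.142 in S100A2. In CALCRL and C1orf232 the sequence around the summit lies inside the 1000 bp by which the start was picked. A low ratio there is favoured by that choice, and nothing is read from it. In S100A2 the sequence around the CHD8 summit lies outside those 1000 bp.

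CHD8 was mostly present without a TRRAP peak. Of the 424, 268 had CHD8 alone (63.2%, 58.5 to 67.7), 134 both (31.6%, 27.4 to 36.2) and 22 TRRAP alone (5.19%, 3.45 to 7.73). Of CpG-poor promoters with CHD8, 33.3% (28.9 to 38.1) had TRRAP, against 61.7% (60.8 to 62.6) of CpG-rich ones. Of those with TRRAP, 85.9% (79.6 to 90.5) had CHD8, against 97.4% (97.03 to 97.8). The lists were deposited at different false discovery rates, 0.0001 for CHD8 and 0.001 for TRRAP, and with TRRAP held to 0.0001 the promoters with both numbered 133. CHD8 peaks were weaker at CpG-poor promoters (median fold 9.75 and width 363.5 bp, against 12.4 and 647 bp at CpG-rich ones). Within bands of CHD8 −log10 q, the authors' significance of the peak, TRRAP was still less frequent at CpG-poor promoters: 14.9% (9.62 to 22.3) against 33.9% (31.3 to 36.7) below 10, and 21.6% (14.6 to 30.8) against 49.9% (47.7 to 52.0) from 10 to 15. From 15 to 25 the shares were 53.1% (43.3 to 62.6) and 63.1% (61.2 to 64.8), whose intervals overlap. From 25 to 50 they were 54.7% and 71.1%, and at 50 or more 36.4% (19.7 to 57.0) and 77.1% (74.9 to 79.1), the former over 22 promoters.

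**Figure D3:**
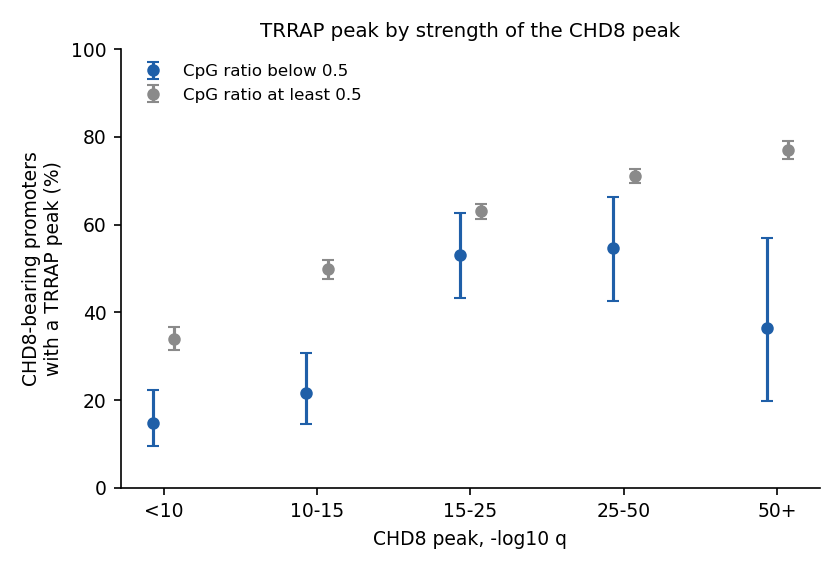
Percentage of promoters with a CHD8 peak that also have a TRRAP peak (vertical axis), in bands of the CHD8 −log10 q (horizontal axis), for CpG-poor and CpG-rich promoters with 95% Wilson intervals. The CpG-poor share is the lower in every band, with overlapping intervals only from 15 to 25.

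The strongest CHD8 peaks without TRRAP were at SHLD1 (fold 44.7), a gene of the shieldin complex in DNA repair, ZNF675 (42.9), ZNF484 (39.8), PIH1D2 (34.1), a gene of dynein arm assembly, C6orf62 (33.2) and TMEM69 (31.8). The C6orf62 summit lay 1672 bp upstream of the start, where the CpG ratio was 0.924, and the other 5 lay within 141 bp of theirs. The strongest with both were ZNF579 (CHD8 fold 35.8, TRRAP fold 7.69), RAB30, a Golgi GTPase gene (34.9 and 19.6), a gene without a symbol on chromosome 9 (33.6 and 9.12), MIX23 (31.4 and 12.5), the thrombospondin gene THBS3 (25.7 and 10.6), TNRC6B (24.8 and 6.26), TJAP1 (23.9 and 17.2) and the serine protease gene PRSS27 (23.5 and 8.65). In ZNF579 and RAB30 both summits were within 282 bp of the start, whereas in THBS3 and PRSS27 both lay at least 968 bp upstream. Over the 134 promoters with both, the CHD8 and TRRAP summits were a median of 78.5 bp apart, 121 pairs of peaks overlapped, and 3 pairs of summits were more than 1 kb apart.

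TRRAP without CHD8 was rare, but less so than at coding promoters at large. CHD8 was at 85.9% of CpG-poor promoters with TRRAP, against 97.2% of all coding promoters with TRRAP. The 22 promoters had TRRAP folds from 6.26 to 12.5. The highest were RHOJ (12.5), an endothelial GTPase gene, FXYD1 (10.1), a regulator of the sodium pump, a gene without a symbol on chromosome 22 (10.1), SLC2A3 (9.12), the neuronal glucose transporter gene, WFDC1 (8.65) and AMER2 (8.65), a regulator of WNT signalling. In RHOJ, SLC2A3 and WFDC1 the summit was within 118 bp of the start, and in the other 3 it lay 667 to 943 bp downstream. The liver gene APOA1 (8.17), which encodes the apolipoprotein of high-density lipoprotein, and ISG15 (7.69), an interferon-induced modifier, also belonged to the 22.

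Among 30 gene lists, the zinc finger (ZNF) genes held the largest number of CpG-poor promoters with a peak. Of 45 CpG-poor promoters of ZNF genes, 17 had a peak (37.8%, 25.1 to 52.4), beside 7.52% of all CpG-poor promoters; all 17 had CHD8 and 5 had TRRAP. They lay high in the CpG range, with a median ratio of 0.461 against 0.352 for the other 407. At like ratios the difference was present from 0.4 to 0.5, where 14 of 19 ZNF promoters had a peak (73.7%, 51.2 to 88.2) against 141 of 681 others (20.7%, 17.8 to 23.9). Below 0.4 the counts were 3 of 26 (11.5%, 4.00 to 29.0) and 266 of 4913 (5.41%, 4.82 to 6.08), whose intervals overlap. Their CHD8 folds ran from 7.10 to 42.9 with a median of 13.3, against 9.31 in the other 385. Of the 17, 12 are on chromosome 19, and 10 of those had the summit downstream of the start and an island-like stretch, among them ZNF675 (81 bp downstream), ZNF85 (277 bp) and ZNF43 (223 bp). In 3 of the 17 the summit sequence occurs more than once in the genome, and reads there can be misplaced between copies.

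Other groups held few members. Of 4 CpG-poor proteasome promoters, 3 had a peak: PSMC2 (CHD8 fold 15.9), an ATPase of the regulatory particle, PSME2 (11.96), a subunit of the interferon-induced activator, and PSMB10 (11.1), an immunoproteasome subunit. Of 17 S100 genes, which encode small calcium-binding proteins, 5 had a peak, but S100A13 and S100A1 (both fold 14.6) share 1 peak. Of 11 neuronal genes, 3 did, with CHD8 alone: GAP43 (7.54), a growth cone protein, NLGN3 (6.22), a synaptic adhesion protein, and GRIA1 (5.77), a glutamate receptor subunit. Of 14 extracellular matrix and mesenchymal genes, SPARC (9.75), COL5A2 (7.54) and ELN (7.10) had CHD8 alone. The muscle genes TNNT2 (7.54) and MYH7 (5.77) were 2 of 26, IFI6 (12.8), an interferon-induced gene, and ISG15 were 2 of 15 interferon-stimulated genes, and APOA1 was 1 of 21 liver genes. The intervals of S100 (13.3 to 53.1%) and of the proteasome (30.1 to 95.4%) lay above 7.52%, and above the 5.02% and 16.97% of all CpG-poor promoters in the same bins of CpG ratio. Those of the neuronal genes (9.75 to 56.6%) and matrix genes (7.57 to 47.6%) held the shares at the same ratios, 15.6% and 12.7%, so these counts are not set apart from CpG-poor promoters at large.

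Several gene lists had fewer peaks than CpG-poor promoters in the same bins of CpG ratio. Olfactory receptor genes had 0 of 406 (0 to 0.937%), beside 3.74% of all CpG-poor promoters in the same bins of CpG ratio, and keratin-associated protein genes 0 of 94 (0 to 3.93%), beside 5.31%. Keratin genes had 0 of 49 (0 to 7.27%), beside 7.54%. Golgin and NBPF genes of segmental duplications had 0 of 84 (0 to 4.37%), beside 12.2%, and cancer-testis antigen genes 1 of 46 (0.385 to 11.3%), beside 15.1%. Copy number was computed at peak summits only. Whether reads can be placed uniquely at the promoters without peaks on these lists was therefore not tested. None of 30 CpG-poor immune and cytokine promoters (0 to 11.4%), including PTPRC, CD3E and IL6, had one, and none of 12 astrocyte and oligodendrocyte promoters (0 to 24.2%), including GFAP and AQP4, but both intervals hold the 7.52% of all CpG-poor promoters. The taste receptor gene TAS1R1 was the 1 of 636 with a peak among olfactory and taste receptors, keratins and their associated proteins, defensins and interferons, and its CHD8 summit lay 787 bp upstream where the CpG ratio was 0.925. Outside these 6 families 423 of 5003 CpG-poor promoters had a peak (8.45%, 7.72 to 9.26). As a check of the labelled cell type, the neural stem cell genes SOX2, NES, VIM, PAX6, HES1, HES5, SOX1, PROM1 and GLI3 had both peaks, and SOX9, MSI1 and FABP7 had CHD8 alone. The neuronal genes TUBB3, MAP2, SYT1 and SNAP25 had both peaks as well, with the highest CHD8 fold among these markers at SNAP25 (38.0), whereas DCX, STMN2 and RBFOX3 had none. Occupancy thus did not separate stem cell genes from neuronal genes. The astrocyte, oligodendrocyte, collagen, blood and epithelial markers checked had no peak, and many of those promoters are CpG-poor, as are DCX and STMN2. A peak does not report expression, so the check is of occupancy only. The nearest peak of a CpG-poor promoter without one was a median of 56679 bp away, and for 7.79% it was within 5 kb of the start.

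Base composition differed between promoters with and without peaks. The median GC share was 56.1% in the 424 (interquartile range 49.9 to 61.1) and 48.9% in the 5215 (41.4 to 56.0), and the median CpG ratio 0.357 and 0.227. Among CpG-poor promoters the share with a peak rose from 3.01% (2.35 to 3.86) below 45% GC to 16.5% (14.1 to 19.2) at 60% or more. Without an island-like stretch it rose from 2.78% to 13.4%.

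The frequency of sequence words was then compared within 500 bp of the start on either side. SP, ETS and E2F words were more frequent in the promoters with peaks, and the TATA, homeobox and AP-1 words less frequent. The SP word was in 19.3% (15.9 to 23.4) of the 424, 6.56% (5.92 to 7.26) of the 5215 and 35.1% of all coding promoters. The ETS word was in 14.2% (11.2 to 17.8), 5.10% (4.54 to 5.73) and 22.4%, and the E2F word in 10.6% (8.03 to 13.9), 5.12% (4.55 to 5.75) and 21.5%. The TATA word, sought 40 to 20 bp upstream on the coding strand, was in 11 of the 424 (2.59%, 1.45 to 4.59) and 468 of the 5215 (8.97%, 8.23 to 9.78), beside 3.86% of all coding promoters. The homeobox word TAATTA was in 13.4% against 21.1%, and the AP-1 word TGANTCA in 21.9% against 27.9%. The E-box CACGTG, the word of MYC, differed by less than its intervals, 13.0% (10.1 to 16.5) against 11.3% (10.5 to 12.2). The SP, ETS and E2F words each hold a CG and the homeobox word holds A and T alone, and the groups differ in CpG ratio and in GC share. Among promoters with a GC share of 50 to 60%, the homeobox word was as frequent in both groups, 8.70% against 8.67%, and the AP-1 intervals overlapped. In that band the intervals remained apart for SP (19.02% against 8.50%), ETS (17.4% against 8.10%), E2F (13.0% against 6.74%) and TATA (2.17% against 8.61%), and they were apart for the YY1 word AAGATGGC as well (10.3% against 3.46%). The proneural E-box CAGNTG was in 93.9% and 94.1% of all, but in that band it was rarer with peaks, 92.9% (88.3 to 95.8) against 96.9% (96.0 to 97.6). The CpG ratio is not matched in that band. Among promoters with a CpG ratio of 0.3 to 0.4, 123 with peaks and 919 without, the intervals were apart only for SP (21.1%, 14.9 to 29.2, against 9.25%, 7.54 to 11.3) and ETS (14.6%, 9.46 to 21.9, against 7.40%, 5.88 to 9.27) of the 20 words. They overlapped for E2F (12.2% against 7.62%), TATA (3.25%, 1.27 to 8.06, against 7.83%, 6.27 to 9.75), YY1 and the proneural E-box. The YY1 difference turned without an island-like stretch, where 2.55% had the word against 4.19%. A word match is a description of the letters and not a bound site.

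**Figure D4:**
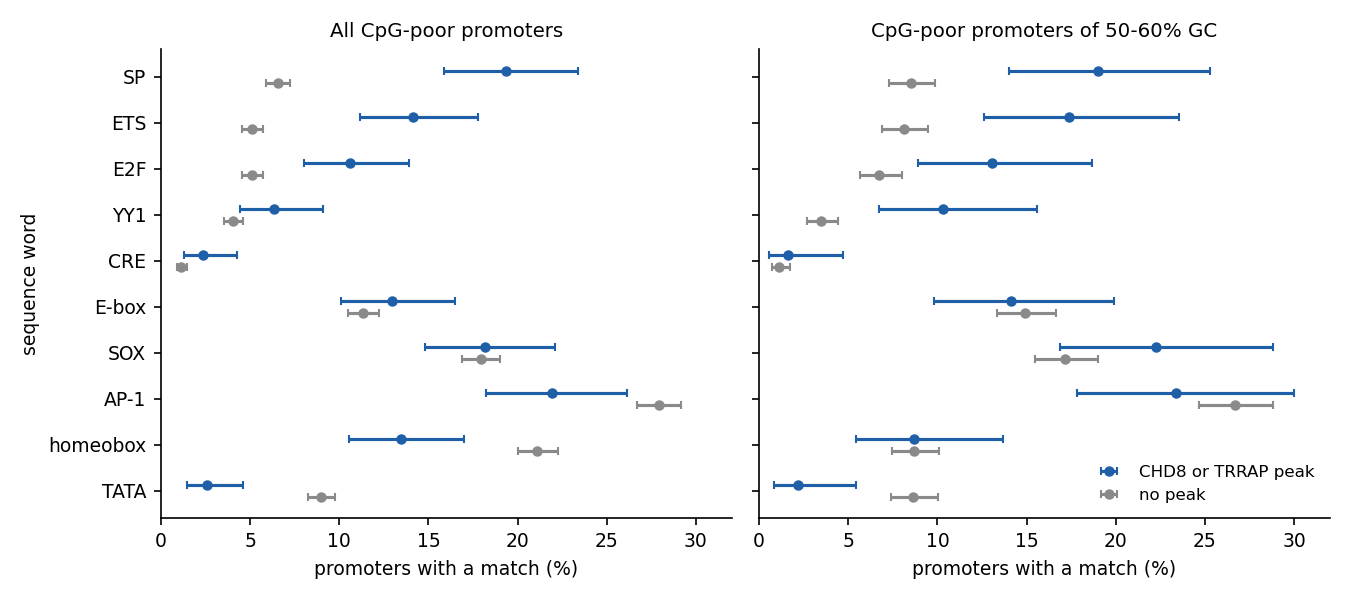
Percentage of promoters with a match to each sequence word within 500 bp of the start (horizontal axis; TATA 40 to 20 bp upstream), for CpG-poor promoters with a CHD8 or TRRAP peak and without, with 95% Wilson intervals. Left, all CpG-poor promoters; right, those of 50 to 60% GC, where, among the words plotted, the SP, ETS, E2F, YY1 and TATA intervals are apart and the homeobox shares are 8.70% and 8.67%.

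Close to the CHD8 summits, within 100 bp of single-copy ones, the ETS word was at 6.15% of 374 summits of CpG-poor promoters (4.13 to 9.06), the SP word at 9.63% (7.03 to 13.0) and the E2F word at 4.55% (2.86 to 7.16). At 9386 summits of CpG-rich promoters the shares were 16.2%, 18.5% and 8.45%. These words each hold a CG and the groups were split on the CpG ratio, so nothing is read from that order. The AP-1 word TGANTCA, which holds no CG, was at 4.01% (2.45 to 6.51) of summits of CpG-poor and 1.49% (1.27 to 1.76) of CpG-rich promoters, with 6.77% at starts of CpG-poor promoters without peaks. Other words without CG went the same way, among them the proneural E-box (38.5% against 27.9%) and the SOX word ACAAAGG (5.35% against 2.72%). GC share was not matched between these groups, so nothing is read from the AP-1 order either.

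The 11 promoters with both a TATA word and a peak were few enough to name, which was done after their values were seen. CX3CL1, a chemokine gene, had CHD8 (fold 11.1) and TRRAP (9.60) summits 82 and 140 bp upstream of the start. S100A13 (14.6) and SELENBP1 (11.1) had CHD8 summits 61 and 42 bp upstream, and NDST4, a heparan sulfate enzyme gene, had one 61 bp downstream (6.66). SLC2A3 (9.12) and NDRG4 (6.26) had TRRAP alone, within 103 bp of the start. In the other 5, namely HCRT, HES3, APOLD1, S100A4 and ORM1, the CHD8 summit lay 547 to 1045 bp from the start, so the summit was not at the TATA word.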

How the data were processed

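The deposited peak lists of CHD8 (23393 peaks) and TRRAP (14735 peaks) were used. Per the submitters' processing notes, HISAT2, MACS2 2.1.1.20160309 and GRCh38 were used; the control and the read totals are not given in the sources used here, so depth is unknown. Each peak carries the authors' score, fold (a linear ratio to background), −log10 p-value and −log10 q-value. These values served to describe and rank peaks within a list. The −log10 q-value also formed the CHD8 bands and filtered peaks in the alternatives.

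CpG ratios, GC shares and 20 sequence words were computed from GRCh38 at canonical starts of GENCODE 44 with Python 3.11.15, numpy 2.4.6, pandas 2.3.3, pysam 0.24.0 and numba 0.67.0. A promoter's strongest peak per list gave its summit. A summit counted as single-copy where the median 32-base word near it, over a 101 bp window, occurs once in the genome. The CpG ratio, the island-like stretch and the peak overlap were checked on simulated data.

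The members, the 30 gene lists, the words and the tests were chosen with earlier results of these data known. Named promoters were the strongest with both (8), with CHD8 alone (6), with TRRAP alone (6) and without an island-like stretch (8), by −log10 q at single-copy summits, the 3 nearest on each side of the CpG limit, and up to 4 per gene list. Alternatives varied the CpG limit and window, the peak window and strength, copy number and the island definition; those results are given at the end.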

Additional observations from a re-analysis of the deposited data

How the results depend on the processing

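The share of CpG-poor promoters with a peak (7.52%) was 5.45% at a CpG limit of 0.4, 13.7% at 0.6, 6.54% and 10.3% with peak windows of 500 and 2500 bp on each side, and 3.97% with peaks above the median −log10 q of their list. The share of these with both proteins (31.6%) was 39.8% with the 2500 bp window and 22.8% with the stronger peaks. The share with an island-like stretch (35.4%) was 16.4% at a limit of 0.4, 69.6% at 0.6, 40.2% with the CpG ratio over 250 bp on each side, 29.9% with the 2500 bp window, 41.1% with the stronger peaks, and 69.6% for stretches of 200 bp. The share with another coding start (11.8%) was 18.1% at a limit of 0.6, 15.7% with the 250 bp ratio, 16.5% with the stronger peaks, and 30.4% when all transcripts of other genes counted. Summits inside the window, TRRAP at a q of at most 0.0001, single-copy summits and autosomes only moved none of these by more than its interval.

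Words were compared again over 250 bp on each side, without island-like stretches, at 50 to 60% GC, and at a CpG ratio of 0.3 to 0.4, the last 2 chosen after seeing the data. The homeobox difference of −7.67 percentage points became 0.0271 at 50 to 60% GC and 0.207 at a CpG ratio of 0.3 to 0.4. The proneural E-box difference of −0.245 was −4.01 at 50 to 60% GC, with intervals apart, and the NFY word CCAAT went from −5.11 to 7.38. The YY1 difference of 2.34 was −1.64 without island-like stretches and 6.87 at 50 to 60% GC, and the CTCF word CCACNAGGG went from 2.20 to −0.556 over 250 bp. The causes of these turns were not tested. The SP, ETS and E2F differences kept their direction in all 4 comparisons and TATA, whose window is fixed, in the 3 that apply to it. Their intervals remained apart except for E2F (4.58) and TATA (−4.58) at a CpG ratio of 0.3 to 0.4.

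With 1 library per antibody, variation between experiments is unknown. Expression was not measured, so whether the cells use the canonical start was not tested. No paired analysis was possible because each antibody had 1 library.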
